A study of Oryza sativa with 36 samples.

Results

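The genes described here are those heat-shock proteins (HSPs) and heat-shock transcription factors (HSFs) of rice that a rule on gene names found. They were taken as the genes whose symbol or synonym begins with HSP or HSF followed by a number or by a class letter and a number, and which a probe set names as its single gene. Where several probe sets named a gene, the brightest over the 36 arrays stood for it. The rule found 43 genes among the 17905 that the array's annotation names, and they comprise 19 small HSPs (up to 35 kDa by name), 4 large HSPs and 20 HSFs. The 4 large HSPs are HSP81-1, HSP81-2, HSP81-3 and hsp101. No HSP70 gene was found by the rule, although the paper lists HSP70 genes with changes on these arrays. The 4 therefore do not stand for all large HSPs of rice. The rule uses names and no measured values.

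The samples are shoots, which the labels call leaf, and roots of rice seedlings grown in nutrient solution. PL177 is 1 salt-tolerant pyramiding line with introgressions from other donors in the IR64 background, and IR64 is the background parent, moderately sensitive to salt. Control plants had neither agent, salt plants had 140 mM NaCl, and salt+ABA plants had 140 mM NaCl with 10 µM abscisic acid (ABA). ABA was not given without salt, so that a difference between salt+ABA and control holds both agents. The labels give 4 days of treatment, whereas the paper describes a longer one. Each of the 12 groups had 3 arrays, which the paper calls independent biological replicates. The seedlings were at the 3-leaf stage when treatment began.

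HSPs are molecular chaperones. Small HSPs bind unfolding proteins without using ATP and keep them soluble, the HSP101 disaggregase of the ClpB type pulls proteins out of aggregates, and HSP81 is the rice name of cytosolic HSP90, which holds client proteins such as kinases and receptors. HSFs bind heat-shock elements in the promoters of these genes. Class A HSFs carry activator motifs, class B HSFs lack them and many act as repressors, and class C HSFs also lack them. In plants these genes answer to heat above all, and subsets of them to drought, salt, oxidants and ABA.

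A gene is called changed where limma's moderated test gave a Benjamini-Hochberg adjusted p below 0.05 over all 57258 probe sets and the change was more than 2-fold. Log2 fold changes are on the log2(intensity + 32) scale after quantile normalization and understate changes of dim genes, and they are followed by their standard error, whereas the array values in the text are the deposited intensities in the order of the replicate numbers. Median intensities of the 36 arrays ran from 56.8 to 64.3. Within groups the shoot control arrays differed most from each other, and the SD of an array from its group was highest, at 0.374 and 0.355 on the log2 scale, in PL177 and IR64 shoot control replicate 2. An alternative chosen after seeing the data left both of these arrays out. It ended 5 of 46 shoot calls of members and added 7, and of 31 called organ differences it ended 3 and added 7. Of 6 leaf markers, 5 were higher in every shoot array than in every root array, and OsrbcS, a small subunit of Rubisco, had medians of 22402 and 2811. Of 10 root markers, 5 were higher in every root array, and the silicon transporter gene Lsi2 had medians of 7556 in roots and 15.4 in shoots. These are whole organs, and fewer cells of a type cannot be told apart from less RNA per cell.

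The members differed widely in level. HSP81-3, HSP81-2, HSP81-1 and HSP18.8 were the brightest, with means over the 12 groups of 9399, 8331, 5949 and 5830, followed by HSP17.9B (4320), hsp17.9 (3227), HSFA2D (2728) and HSP24.1 (2069). Probe sets differ in how well they bind, so that this order is no order of transcripts. At the other end, 7 of the 43 genes did not reach a group mean of 100 anywhere: HSP16.9B, HSP17.8, HSP21.9, HSP26.7, HSFA2A, HSFA2B and HSFC1A. The ratio of the highest to the lowest group mean was 56.9 for HSP18.6, 32.9 for HSP23.2 and 16.5 for HSFA3, against 1.14 for HSFA5, 1.21 for HSP21.9 and 1.30 for HSFA1, the class A factor whose Arabidopsis relatives start the heat response. Of the 43, 15 were called in at least 1 of the 12 comparisons between treatments: 6 of 19 small HSPs, 1 of 4 large HSPs and 8 of 20 HSFs. Of all probe sets 6.14% were called in at least 1 of the 12. These counts rest on the brightest probe set of each gene, and for 4 genes, HSP18.1, HSP18.6, HSFB2A and HSFB2C, another probe set passed the same thresholds in a comparison where the brightest did not, 9 times in all. HSFA2C counts among the 8 HSFs by its brighter probe set only, and its gene record also carries enzyme names.

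In salt-treated shoots a few small HSPs rose, with HSP18.6 first. In PL177 shoots 4 of 19 small HSPs were called up and none down, and in IR64 shoots 6 and none. Over all probe sets 0.983% rose and 1.27% fell in PL177 shoots, and 0.968% and 1.38% did in IR64 shoots. The median log2 fold change of the 19 was 0.39 in PL177 and 0.40 in IR64, with medians of -0.01 and 0.00 over all probe sets. HSP18.6, hsp17.9, HSP18.1 and HSP23.2 were called in both genotypes, and they are all 4 of the calls in PL177 and 4 of the 6 in IR64.

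HSP18.6, a small HSP, had intensities of 91.3, 365 and 107 in PL177 control shoots and 1047, 1775 and 3176 under salt, a log2 fold change of 3.26 ± 0.51 (SE, adjusted p = 0.00102). In IR64 shoots it had 85.8, 413 and 175 under the control and 2190.1, 1855 and 1943 under salt, a log2 fold change of 3.19 ± 0.51 (SE, adjusted p = 0.00115). The salt arrays lay above every control array in both genotypes, and the control arrays numbered 2 were the highest of their groups. Without these 2 arrays the changes were 3.80 and 3.71. A second probe set of HSP18.6, whose ID does not mark shared probes, rose by 2.74 and 2.69, and the remaining, dim one, with group means no higher than 43.9, changed by 0.33 and 0.40.

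The gene hsp17.9, bright in all groups, rose in PL177 shoots from 649.5, 1044 and 669 to 2649, 3344 and 5269.9, a log2 fold change of 2.20 ± 0.25 (SE, adjusted p = 9.23e-05). In IR64 shoots it rose from 649, 1121 and 829 to 3617, 3459 and 3244, by 2.03 ± 0.25 (SE, adjusted p = 0.000156). No control array reached a salt array, and the same holds for HSP18.1. HSP18.1 rose from 99.3, 103 and 107 to 293, 336 and 647 in PL177 and from 102, 127 and 97.9 to 432, 359.6 and 374 in IR64, by 1.64 ± 0.20 (SE, adjusted p = 0.000157) and 1.55 ± 0.20 (SE, adjusted p = 0.000235). The ID of its brighter probe set marks probes shared with other transcripts, and the other one, whose ID marks none, rose by 1.75 in both genotypes.

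HSP23.2, named for the endoplasmic reticulum in rice nomenclature, was dim in shoots and rose from 24.6, 38.7 and 28.9 to 83.6, 72.3 and 153 in PL177 and from 16.2, 22.1 and 40.3 to 106, 75.5 and 83.5 in IR64. The log2 fold changes were 1.10 ± 0.19 (SE, adjusted p = 0.00205) and 1.08 ± 0.19 (SE, adjusted p = 0.00221). The salt arrays lay above the control arrays. The changes fell under 2-fold without 1 array, to 0.85 without PL177 shoot salt replicate 3, and to 0.98 and 0.95 without IR64 shoot salt replicate 1 and IR64 shoot control replicate 1. HSP17.4 and HSP16.9A were called in IR64 and stood just under 2-fold in PL177, where both passed the adjusted p. HSP17.4 had 133, 104 and 148 under the control and 413, 243 and 295 under salt in IR64 shoots. It changed by 1.08 ± 0.24 (SE, adjusted p = 0.00956) in IR64 and 0.91 ± 0.24 (SE, adjusted p = 0.0223) in PL177, and the IR64 call was lost without IR64 shoot salt replicate 1 (0.88) or shoot control replicate 2 (0.98). HSP16.9A had 43.2, 39.2 and 56.7 under the control and 132, 119.8 and 152 under salt in IR64 shoots and 54.8, 51.3 and 52.7 under the control and 128.1, 99.8 and 182 under salt in PL177 shoots, with changes of 1.11 ± 0.13 (SE, adjusted p = 0.000124) and 0.97 ± 0.13 (SE, adjusted p = 0.000372). The salt arrays of both genes lay above their control arrays in each genotype.

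PL177 shoot salt replicate 3 was the highest of its 3 arrays for 14 of 19 small HSPs and for all 6 of those called anywhere, and for 18 of the 23 HSPs. Without it, the calls of HSP23.2 (0.85) and of the factor HSFA9 (-1.46, adjusted p = 0.117 by limma) in salt-treated PL177 shoots were lost. The count of members called there, 11 with the large HSPs and HSFs, ran from 9 to 12 when any 1 array was left out, this array among them. What made this array high was not tested. Without both shoot control arrays numbered 2, 5 small HSPs in PL177 and 6 in IR64 were called up. HSP16.0, a small HSP with a wide spread of the controls, had 83.9, 437 and 121 in PL177 control shoots and 292, 436 and 764 under salt, and its change of 1.25 ± 0.49 (SE, adjusted p = 0.118) was not called. Without the 2 control arrays it was called, at 1.86 in PL177 and 1.61 in IR64.

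**Figure D1:**
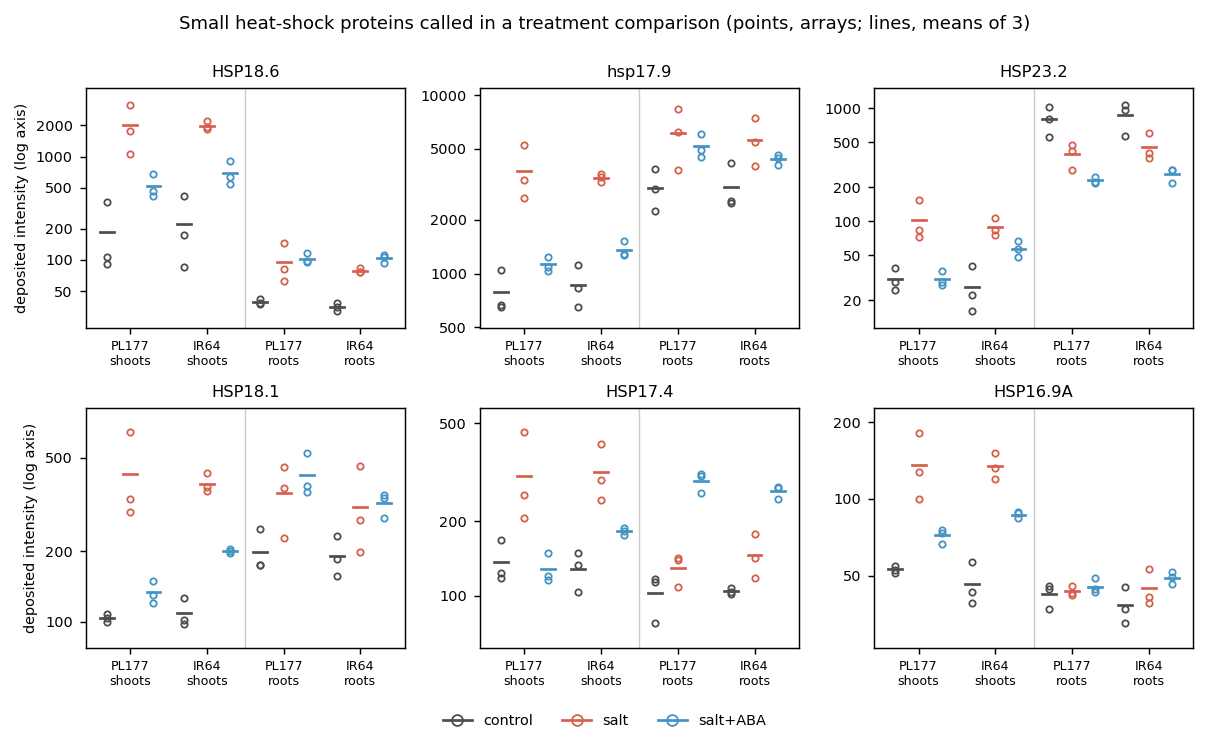
Deposited intensity (log axis) of the 6 small HSPs called in a treatment comparison, by organ, genotype and treatment; points are arrays and lines the means of 3. HSP18.6 reached 3176 in a salt-treated shoot array and no more than 146 in any root array, and HSP23.2 was higher in every root array than in every shoot array.

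With ABA added to the salt, the 6 small HSPs called under salt stood lower in shoots than under salt alone. Against salt, 5 of 19 fell in PL177 shoots, and 1 fell in IR64 shoots, with no small HSP up in either. Over all probe sets 0.513% fell and 0.197% rose in PL177, and 0.475% and 0.272% did in IR64. The median of the 19 was -0.36 in PL177 and -0.20 in IR64. The gene called in both was hsp17.9, with 1038, 1244 and 1092 in PL177 and 1277, 1515 and 1286 in IR64 under salt+ABA, log2 fold changes against salt of -1.67 ± 0.25 (SE, adjusted p = 0.0016) and -1.34 ± 0.25 (SE, adjusted p = 0.00624). All of these arrays lay below the salt arrays. Comparisons against salt share the salt arrays with those of salt against control, so that an array that is high under salt enters both.

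HSP18.6 had 414, 674 and 460.4 under salt+ABA in PL177 and 548, 906 and 639 in IR64, changes against salt of -1.80 ± 0.51 (SE, adjusted p = 0.0351) and -1.52 ± 0.51 (SE, adjusted p = 0.0762). Only the first was called, and it was lost without any 1 of 5 arrays (PL177 shoot salt replicates 2 and 3 and all 3 PL177 shoot salt+ABA arrays, with values from -1.99 to -1.39). HSP18.1 had 121, 149 and 130.2 in PL177 and 196, 205 and 199.7 in IR64, and changed by -1.46 ± 0.20 (SE, adjusted p = 0.00115) and -0.87 ± 0.20 (SE, adjusted p = 0.0168). HSP23.2 had 28.9, 27.5 and 36.5 in PL177 and 66.5, 56.2 and 48.1 in IR64, all below the salt arrays. HSP23.2 changed by -1.11 ± 0.19 (SE, adjusted p = 0.00297) in PL177 and -0.49 ± 0.19 (SE, adjusted p = 0.12) in IR64, and HSP17.4 by -1.08 ± 0.24 (SE, adjusted p = 0.0103) and -0.70 ± 0.24 (SE, adjusted p = 0.081). Without PL177 shoot salt replicate 3 the PL177 values of HSP23.2 and HSP17.4 were -0.87 and -0.78, under 2-fold. Whether these responses differed between the genotypes is given with the other genotype comparisons.

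Against the control, no small HSP was called in salt+ABA shoots of either genotype by limma and 1 in each passed 2-fold with an unadjusted p below 0.05. Of all probe sets 0.309% rose and 0.732% fell in PL177, and 0.314% and 0.777% in IR64. The 1 gene was HSP18.6, whose salt+ABA arrays lay above every control array, with changes of 1.46 ± 0.51 (SE, adjusted p = 0.113) and 1.67 ± 0.51 (SE, adjusted p = 0.0677). Without the 2 control arrays numbered 2 it was called in both genotypes, at 2.01 and 2.19.

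In roots the small HSPs gave another picture. Under salt HSP23.2 fell in PL177 roots and no small HSP was called in IR64 roots, where 0.73% of all probe sets rose and 0.606% fell in PL177, and 0.608% and 0.592% in IR64. The count of small HSPs past 2-fold with an unadjusted p below 0.05 in IR64 roots was also 0. The gene hsp17.9, called up in salt-treated shoots, was thus not called under salt in roots. Its highest group mean was nevertheless that of PL177 salt roots, at 6130 with an SD of 2305. The salt response of hsp17.9 in shoots minus that in roots was not called in either genotype. Without both shoot control arrays numbered 2 this difference was called, at 1.44 in PL177 and 1.31 in IR64. HSP23.2 had 796, 1025 and 556 in PL177 control roots, 283, 417 and 469 under salt and 218, 246 and 222 under salt+ABA. In IR64 roots it had 962, 1059.7 and 564 under the control, 404, 362 and 605 under salt and 283, 215 and 282 under salt+ABA. Every salt+ABA array lay below every control array, and in IR64 the salt arrays overlapped with the control arrays. The salt change was -1.04 ± 0.25 (SE, adjusted p = 0.0124) in PL177 and -0.92 ± 0.25 (SE, adjusted p = 0.0272) in IR64, and the PL177 call was lost without PL177 root salt replicate 1 (-0.82) or root control replicate 2 (-0.85). The salt+ABA change against control was -1.66 ± 0.25 (SE, adjusted p = 0.000355) and -1.60 ± 0.25 (SE, adjusted p = 0.000611). In PL177, HSP23.2 thus rose under salt in shoots, where it was dim, and fell in roots, where it was bright.

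HSP17.4 rose in salt+ABA roots. It had 114, 117 and 77.3 in PL177 control roots, 108, 139.7 and 142 under salt and 311, 260.3 and 305 under salt+ABA, and 108, 103 and 101 under the control, 118, 142 and 178 under salt and 274, 276 and 246 under salt+ABA in IR64 roots. The salt+ABA arrays were above all others. Against the control it changed by 1.29 ± 0.13 (SE, adjusted p = 9.2e-06) in PL177 and 1.10 ± 0.13 (SE, adjusted p = 4.77e-05) in IR64, against salt by 1.03 ± 0.13 (SE, adjusted p = 0.0001) and 0.79 ± 0.13 (SE, adjusted p = 0.00107). The PL177 change against salt fell to 2-fold or under, between 0.93 and 1.0, without PL177 root salt replicate 1 or salt+ABA replicate 1 or 3. HSP18.6 rose in salt+ABA roots too, from 38.3, 35.2 and 31.9 to 106, 111 and 94.01 in IR64 and from 42.01, 37.6 and 38.1 to 95.8, 96.9 and 115 in PL177. The changes were 1.01 ± 0.15 (SE, adjusted p = 0.000455), which is called, and 0.94 ± 0.15 (SE, adjusted p = 0.000642), which is under 2-fold, and the IR64 call was lost without IR64 root salt+ABA replicate 1 (1.0) or 2 (0.97) or root control replicate 3 (0.97). The other 2 probe sets of HSP18.6 changed by 0.49 and 0.0 in these IR64 roots and were not called. At these low levels the added 32 holds the fold changes down.

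HSP18.1 differed by probe set in roots. Its unshared probe set had 30.7, 24.6 and 28.3 in PL177 control roots, 27.5, 33.0 and 38.0 under salt and 207, 206 and 298 under salt+ABA, and 38.1, 25.3 and 23.4 under the control, 31.9, 46.6 and 36.9 under salt and 203, 247 and 228 under salt+ABA in IR64 roots. Its salt+ABA arrays lay far above all others. It rose against control by 2.18 ± 0.13 (SE, adjusted p = 6.13e-08) in PL177 and 2.07 ± 0.13 (SE, adjusted p = 9.67e-08) in IR64, and against salt by 2.04 ± 0.13 (SE, adjusted p = 3.85e-07) and 1.87 ± 0.13 (SE, adjusted p = 7.09e-07). The brighter probe set, with shared probes, changed by 0.93 and 0.63 against control and by 0.32 and 0.16 against salt, and was not called.

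By the brightest probe sets, which leave out this rise of HSP18.1, 1 small HSP rose and 1 fell in PL177 roots under salt+ABA against control, and 2 rose and 1 fell in IR64 roots. The backgrounds were 1.1% up and 0.906% down in PL177, and 0.875% and 0.798% in IR64. Against salt, the brightest probe sets gave a call of HSP17.4 in PL177 roots and none in IR64 roots by limma, where none had an unadjusted p below 0.05 with more than 2-fold either. There 0.327% of all probe sets rose and 1.05% fell in PL177, and 0.33% and 0.975% in IR64. The median of the 19 small HSPs lay between 0.04 and 0.19 over the 6 root comparisons, where the medians over all probe sets were near 0.

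The brightest small HSPs were not called in any treatment comparison. HSP17.9B had group means of 7759 ± 1238 (SD, n = 3) in PL177 control shoots and 6963 ± 382 (SD, n = 3) under salt, and 1006 ± 266 (SD, n = 3) in PL177 control roots and 1726 ± 106 (SD, n = 3) in PL177 salt+ABA roots. HSP18.8 fell in roots by less than 2-fold, from 4009, 3579.8 and 3815 to 2872, 2753 and 2994 under salt and 2239.5, 2208 and 2015 under salt+ABA in PL177. Its changes against control were -0.50 ± 0.07 (SE, adjusted p = 0.000208) and -0.87 ± 0.07 (SE, adjusted p = 6.21e-07), and -0.51 ± 0.07 (SE, adjusted p = 0.000159) and -0.80 ± 0.07 (SE, adjusted p = 1.39e-06) in IR64 roots. The 3 groups did not overlap in PL177 roots. The ID of its probe set marks shared probes. HSP24.1, a small HSP named for mitochondria in rice nomenclature, had 1227, 2172 and 3518 in PL177 salt roots and 4406, 4076 and 4714 under salt+ABA, and changed by 1.08 ± 0.36 (SE, adjusted p = 0.0938). Over the 13 small HSPs with no call, the log2 fold changes ran from -0.92 to 1.25, and HSP26.7, a small HSP named for plastids, stayed within -0.26 and 0.36.

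Several small HSP genes are neighbours. On chromosome 3, HSP17.4, HSP18.1 and HSP17.7 follow each other with 0 genes between them, and hsp17.9 lies 4 genes from HSP17.4. By their brightest probe sets these changed in salt-treated PL177 shoots by 0.91, 1.64, 0.39 and 2.20, and in salt+ABA PL177 roots against control by 1.29, 0.93, 0.22 and 0.73. HSP17.7 was thus called in neither, while its next neighbour HSP18.1 rose in shoots, and it was higher in roots than in shoots in all 6 comparisons of the organs. On chromosome 1, HSP16.6 and HSP17.9B are adjacent, as are HSP16.9A and HSP16.9B, with 1 gene between the pairs. There HSP16.9A changed by 0.97 and 1.11 in salt-treated shoots, HSP16.9B by 0.48 and 0.44, HSP17.9B by -0.09 and -0.02 and HSP16.6 by 0.07 and 0.10. Near-identical copies can share signal, and the record of the gene called HSP16.9A here also carries the name HSP16.9B. The order of the genes is from RefSeq's assembly ASM3414082v1.

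Among the 4 large HSPs that the rule found, hsp101, the disaggregase, rose under salt in both organs and both genotypes. The HSP81 genes were not called between treatments. The 4 large HSPs had a median change of 0.39 in salt-treated PL177 shoots and 0.28 in IR64 shoots. The gene hsp101 had 112, 161 and 94.5 in PL177 control shoots and 311, 380.04 and 609 under salt, and 119, 167 and 151 under the control and 433, 495 and 421 under salt in IR64 shoots. In roots it had 89.2, 164 and 100.5 under the control and 288, 329 and 467 under salt in PL177, and 156, 181 and 118 under the control and 328, 388 and 374 under salt in IR64. The salt arrays lay above the control arrays in all 4 pairs of groups. The changes were 1.53 ± 0.20 (SE, adjusted p = 0.000277) and 1.42 ± 0.20 (SE, adjusted p = 0.000452) in shoots, and 1.35 ± 0.18 (SE, adjusted p = 0.000259) and 1.05 ± 0.18 (SE, adjusted p = 0.00189) in roots, the last under 2-fold (0.91) without IR64 root control replicate 3.

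Under salt+ABA hsp101 had 221, 279 and 236 and 239, 305 and 269.7 in PL177 and IR64 shoots, between the control and the salt arrays. Its changes against control were 0.80 ± 0.20 (SE, adjusted p = 0.0333) and 0.74 ± 0.20 (SE, adjusted p = 0.0411) and against salt -0.73 ± 0.20 (SE, adjusted p = 0.0296) and -0.68 ± 0.20 (SE, adjusted p = 0.0471), past the adjusted p and under 2-fold. In roots it stayed high, with 361, 406 and 398 in PL177 and 441, 493 and 421 in IR64, changes against control of 1.53 ± 0.18 (SE, adjusted p = 5.01e-05) and 1.37 ± 0.18 (SE, adjusted p = 0.00017).

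The HSP81 genes were bright and varied by small amounts. Of HSP81-1, PL177 shoots had 3975, 4256 and 4167 under the control, 5023, 4564 and 6563 under salt and 3389, 3570.3 and 3301 under salt+ABA. The changes were 0.44 ± 0.11 (SE, adjusted p = 0.0239) for salt against control and -0.63 ± 0.11 (SE, adjusted p = 0.00421) for salt+ABA against salt. HSP81-3 changed by 0.34 ± 0.06 (SE, adjusted p = 0.0025) and -0.44 ± 0.06 (SE, adjusted p = 0.00118) in the same shoots, and HSP81-2, which lies 2 genes away from it, by 0.18 ± 0.07 (SE, adjusted p = 0.0942) and -0.09 ± 0.07 (SE, adjusted p = 0.427). Over the 12 comparisons the brightest probe sets of the 3 genes stayed between -0.63 and 0.63. The other probe set of HSP81-1, whose ID marks no shared probes, did not follow the brighter one in shoots. It had 3960, 2944 and 2723 in IR64 control shoots and 1568, 1882 and 1300.2 under salt, with no overlap, and changed by -0.93 ± 0.25 (SE, adjusted p = 0.0307) there and by -0.25 ± 0.25 (SE, adjusted p = 0.591) in salt-treated PL177 shoots. In salt+ABA roots it changed against control by 0.67 ± 0.11 (SE, adjusted p = 0.000853) in PL177 and 0.64 ± 0.11 (SE, adjusted p = 0.00163) in IR64, under 2-fold. Its response in shoots minus that in roots was called for salt+ABA against control, at -1.23 ± 0.28 (SE, adjusted p = 0.0047) in PL177 and -1.20 ± 0.28 (SE, adjusted p = 0.00665) in IR64. For salt+ABA against salt in PL177 it was called at -1.02 ± 0.28 (SE, adjusted p = 0.0193). The brightest probe set, at -0.86, -0.50 and -0.83, was not called there. The ID of the HSP81-3 probe set marks probes shared with other transcripts, so the HSP81 values may not be fully separate.

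**Figure D2:**
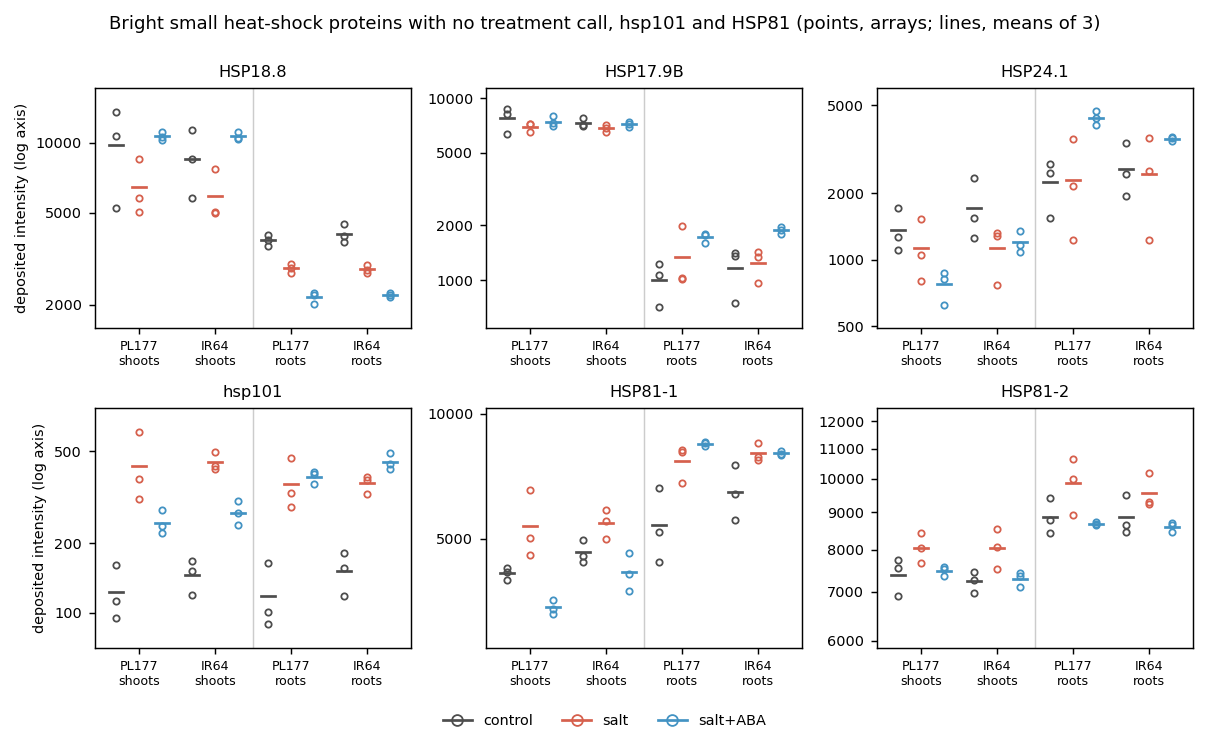
Deposited intensity (log axis) of 3 bright small HSPs with no treatment call, of hsp101 and of 2 HSP81 genes, in the 12 groups; points are arrays and lines the means of 3. The salt arrays of hsp101 lie above its control arrays in both organs, HSP17.9B has 6363 or more in every shoot array and 1996 or less in every root array, and HSP18.8 in roots is lowest under salt+ABA.

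Among the 20 HSFs, the same 6 were called in salt-treated shoots of both genotypes, 3 up and 3 down, which is every HSF call in either. HSFA6B, HSFC2A and HSFB2B rose, and HSFA3, HSFA4D and HSFA9 fell. The background is that of the small HSPs in the same comparisons, and the median of the 20 HSFs was 0.02 in PL177 and 0.09 in IR64. HSFA6B, whose Arabidopsis relative responds to ABA, had 104, 71.7 and 87.6 in PL177 control shoots and 305, 736 and 991 under salt, and 98.1, 82.3 and 84.2 under the control and 634, 592 and 432 under salt in IR64. It changed by 2.42 ± 0.30 (SE, adjusted p = 0.000188) and 2.24 ± 0.30 (SE, adjusted p = 0.000321). HSFC2A, a class C factor, had 75.9, 156 and 71.05 under the control and 515, 553 and 979 under salt in PL177, and 57.9, 217 and 60.03 under the control and 464, 600.2 and 778 under salt in IR64, with changes of 2.40 ± 0.37 (SE, adjusted p = 0.000917) and 2.30 ± 0.37 (SE, adjusted p = 0.00124). The salt arrays of both genes lay above all control arrays, and the control arrays numbered 2 were the highest controls of HSFC2A. Without them HSFC2A changed by 2.70 and 2.80.

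HSFB2B, a class B factor known in rice as a negative regulator of drought and salt tolerance, was dim and had 20.8, 34.5 and 24.1 under the control and 57.2, 119 and 233 under salt in PL177 shoots, and 27.2, 31.1 and 20.7 under the control and 155, 139 and 141 under salt in IR64. It changed by 1.42 ± 0.25 (SE, adjusted p = 0.00246) and 1.62 ± 0.25 (SE, adjusted p = 0.00101), with no overlap of the groups. Its other probe set was listed at group means between 19.1 and 25.7 and changed by 0.02 and -0.05, so that the rise rests on 1 of its 2 probe sets.

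HSFA3, which acts downstream of DREB2A in Arabidopsis, fell in PL177 shoots from 1098, 1210.4 and 1197 to 236, 233 and 330.3, and in IR64 shoots from 1288, 727 and 1694 to 327, 185 and 225. The changes were -2.01 ± 0.25 (SE, adjusted p = 0.000168) and -2.10 ± 0.25 (SE, adjusted p = 0.000114), and each salt array was below each control array. HSFA4D, the gene of the rice spotted leaf mutant spl7, had 1537, 2787 and 1302 under the control and 824, 399 and 572 under salt in PL177, and 2990.3, 1919 and 2671 under the control and 660.1, 259.6 and 669 under salt in IR64, with changes of -1.56 ± 0.36 (SE, adjusted p = 0.0117) and -2.24 ± 0.36 (SE, adjusted p = 0.00121). The salt arrays of HSFA4D too lay below its control arrays. The PL177 call was lost without PL177 shoot salt replicate 2, at -1.31 with an adjusted p of 0.06 from limma.

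HSFA9, an HSF of seed maturation in Arabidopsis and sunflower, fell in both genotypes with a wide spread of the controls. It had 2575, 1275 and 3511 in PL177 control shoots and 1029, 600.5 and 697 under salt, and 2809, 727 and 3482 under the control and 867, 441 and 516 under salt in IR64. Here the control arrays numbered 2 were the lowest, and in IR64 that array lay within the salt arrays. The changes of -1.51 ± 0.45 (SE, adjusted p = 0.0408) and -1.63 ± 0.45 (SE, adjusted p = 0.0329) were lost without any 1 of 11 arrays in PL177 (values from -1.51 to -1.21) and of 4 in IR64 (IR64 shoot salt replicates 2 and 3 and control replicates 1 and 3, values from -1.57 to -1.22). In PL177 these 11 were salt replicates 2 and 3, control replicates 1 and 3 and all salt+ABA arrays of PL177, and salt replicate 3 and all salt+ABA arrays of IR64, which enter through the shared spread. Without both control arrays numbered 2 the changes were -1.88 and -2.27 with adjusted p-values of 0.00034 and 8.5e-05 from limma.

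Under salt+ABA, HSFC2A and HSFA6B stayed above the control in shoots, and HSFA3 and HSFA4D stayed below it, joined by HSFB2A. These 5 were called against the control in both genotypes, 2 up and 3 down, and they are every member called there, where 0.309% of all probe sets rose and 0.732% fell in PL177, and 0.314% and 0.777% in IR64. HSFC2A had 444, 469 and 425 in PL177 and 335, 483 and 448 in IR64, changes of 1.88 ± 0.37 (SE, adjusted p = 0.01) and 1.80 ± 0.37 (SE, adjusted p = 0.0109), the second with an adjusted p of 0.0536 without IR64 shoot salt+ABA replicate 2 (limma; change 1.71). HSFA6B had 213, 331 and 259 and 182, 276 and 245, changes of 1.26 ± 0.30 (SE, adjusted p = 0.0263) and 1.10 ± 0.30 (SE, adjusted p = 0.0447). HSFA3 had 489.6, 447 and 326 and 478, 396 and 399.6, changes of -1.42 ± 0.25 (SE, adjusted p = 0.00478) and -1.36 ± 0.25 (SE, adjusted p = 0.00525). HSFA4D had 616, 623 and 515 and 1062, 723 and 809.5, all below the control arrays as for HSFA3. HSFA4D changed by -1.53 ± 0.36 (SE, adjusted p = 0.0242) and -1.46 ± 0.36 (SE, adjusted p = 0.0273).

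HSFB2A, a class B factor with 2 probe sets, had 469.97, 901 and 479 in PL177 control shoots, 289.8, 512 and 813 under salt and 249.6, 239.6 and 189 under salt+ABA, and 927, 712 and 1020.2 under the control, 563, 556 and 893 under salt and 349.8, 271 and 299 under salt+ABA in IR64. The salt+ABA arrays were below all others in both genotypes, and the salt and control arrays overlapped. It changed by -1.33 ± 0.32 (SE, adjusted p = 0.0293) and -1.40 ± 0.32 (SE, adjusted p = 0.0209) against control, and its other probe set by -1.25 and -1.48. The 5 calls rested on single arrays in part. The count of 5 fell to 2 without any of the 3 PL177 shoot salt+ABA arrays and to 3 without PL177 shoot control replicate 2, and in IR64 to 1 without salt+ABA replicate 2 and to 2 without salt+ABA replicate 3 or control replicate 1 or 3. The calls lost in this way were those of HSFA4D (values from -1.58 to -1.19 in PL177 and from -1.42 to -1.34 in IR64), HSFB2A (from -1.42 to -1.03 and from -1.39 to -1.30) and HSFA6B (from 1.12 to 1.39 and from 1.0 to 1.23) in both genotypes, and HSFC2A in IR64. That of HSFA6B in IR64 was lost without any 1 of 13 of the 18 shoot arrays. The HSFA3 calls stayed in every such fit. Without both shoot control arrays numbered 2, HSFA6B was called in neither genotype, at 1.16 (adjusted p = 0.0564) and 1.08 (adjusted p = 0.0775) by limma, and HSFA4D and HSFB2A were not called in PL177, at -1.19 (adjusted p = 0.0556) and -1.03 (adjusted p = 0.0692).

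Against salt alone, HSFA6B, HSFB2B and HSFB2A fell in salt+ABA shoots of PL177, and HSFA6B and HSFB2B fell and HSFA9 rose in IR64. HSFB2B, back near the control at 36.1, 33.2 and 30.00 and 46.9, 45.9 and 34.9, changed by -1.29 ± 0.25 (SE, adjusted p = 0.00607) and -1.31 ± 0.25 (SE, adjusted p = 0.00747), and by -0.90 without PL177 shoot salt replicate 3. HSFA6B changed by -1.15 ± 0.30 (SE, adjusted p = 0.024) and -1.14 ± 0.30 (SE, adjusted p = 0.0299). HSFA9 had 1717, 1658 and 1633 and 2117, 1653 and 1768 and changed by 1.13 ± 0.45 (SE, adjusted p = 0.124) and 1.62 ± 0.45 (SE, adjusted p = 0.0375), with the salt+ABA arrays above the salt arrays in both. HSFB2A changed by -1.09 ± 0.32 (SE, adjusted p = 0.0442) and -1.03 ± 0.32 (SE, adjusted p = 0.0609). Of these calls, that of HSFA6B was lost without 1 of 4 arrays in PL177 (values from -1.14 to -0.82) and 1 of 5 in IR64 (from -1.25 to -1.01), that of HSFB2A without 1 of 10 arrays (from -1.17 to -0.74) and that of HSFA9 without 1 of 8 (from 1.40 to 1.70), with PL177 shoot salt replicate 3 giving the smallest values of HSFA6B and HSFB2A. With the small HSPs, 8 members were called in PL177, all down, and 4 in IR64. The 8 fell to 2 without PL177 shoot salt replicate 3 and to 5 without salt replicate 2 or salt+ABA replicate 1 or 3, and the 4 to 2 without IR64 shoot salt replicate 2 or any of the IR64 shoot salt+ABA arrays.

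In roots no HSF was called under salt in either genotype by limma, nor at an unadjusted p below 0.05 with more than 2-fold. Under salt+ABA, HSFA6B and the brighter probe set of HSFA2C rose against the control in both genotypes, and the other probe set of HSFA2C was not called. HSFA6B had 171, 77.1 and 107 in PL177 control roots, 587, 168 and 176 under salt and 475, 469.8 and 360.4 under salt+ABA, and 162, 79.8 and 148 under the control, 329, 167 and 149 under salt and 533, 547 and 439 under salt+ABA in IR64 roots. Every salt+ABA array lay above every control array, and the salt arrays overlapped with the control arrays in both genotypes, with replicate 1 the highest salt array. The changes against control were 1.67 ± 0.38 (SE, adjusted p = 0.00783) and 1.74 ± 0.38 (SE, adjusted p = 0.00727). HSFC2A, brighter in control roots than in control shoots, changed in roots by 1.05 ± 0.41 (SE, adjusted p = 0.104) and 1.10 ± 0.41 (SE, adjusted p = 0.0979) under salt+ABA and was not called.

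HSFA2C and HSFA2D are less certain, because their gene records also carry names of acireductone dioxygenases, enzymes of the methionine salvage cycle, and their 2 probe sets each did not move together. The brighter probe set of HSFA2C had 618, 317 and 230.2 in PL177 control roots and 1292, 1339 and 1264 under salt+ABA, and 466, 353 and 239 under the control and 1278, 1126 and 1517 under salt+ABA in IR64, with changes of 1.71 ± 0.36 (SE, adjusted p = 0.00474) and 1.83 ± 0.36 (SE, adjusted p = 0.00373) and no overlap. The dimmer one had 82.1, 169.9 and 91.1 under the control and 161, 139.6 and 140.5 under salt+ABA in PL177 roots and changed by 0.34 there and by 0.05 in IR64. Against salt the brighter one rose by 1.30 ± 0.36 (SE, adjusted p = 0.0411) in PL177 roots, a call lost without any 1 of 10 arrays (values from 0.94 to 1.31), while the dimmer one stood at -0.03. The count of 2 members called there fell to 0 without PL177 root salt+ABA replicate 1 or 3 and to 1 without PL177 root salt+ABA replicate 2, IR64 root salt replicate 3, IR64 root control replicate 2 or any IR64 root salt+ABA array. The 10 arrays are PL177 root salt replicates 2 and 3, IR64 root salt replicate 3, IR64 root control replicate 2 and all 6 root salt+ABA arrays.

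For HSFA2D the brighter probe set had group means from 1878 to 3737 and no treatment call, and the other one differed between the organs, with 575, 2851 and 648 in PL177 control shoots and 29.6, 240.3 and 34.4 in PL177 control roots. Replicate 2 was highest in both groups. Its treatment changes had standard errors of 0.50 in shoots and 0.64 in roots and none was called. Which probe set reports the factor was not tested. For salt+ABA against salt, the paper lists a heat-shock factor of chromosome 3, by locus name, as lower in roots of both genotypes. The dimmer probe set of HSFA2D, on that chromosome, went from 158 to 42.2 in PL177 roots and from 204 to 50.5 in IR64 roots. Its brighter one did not fall there. The paper also lists 1 of chromosome 10 as lower in PL177 shoots, where the dimmer probe set of HSFA2C went from 201 to 86.5. HSFB1, a class B repressor in Arabidopsis, showed single high arrays of the same kind, with 824, 2232 and 569.5 in PL177 control roots and 829, 2185 and 694 in IR64 control roots, and 1112, 1305 and 3002 and 1282, 1732 and 3961 under salt, and had no call. Over all probe sets the deviations of control arrays with the same number were correlated between the genotypes, at 0.704 to 0.739 in shoots and 0.584 to 0.695 in roots. Those of the salt arrays in roots were correlated too, at 0.149 to 0.505. Calls against the control that were made in both genotypes are thus not independent of each other.

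**Figure D3:**
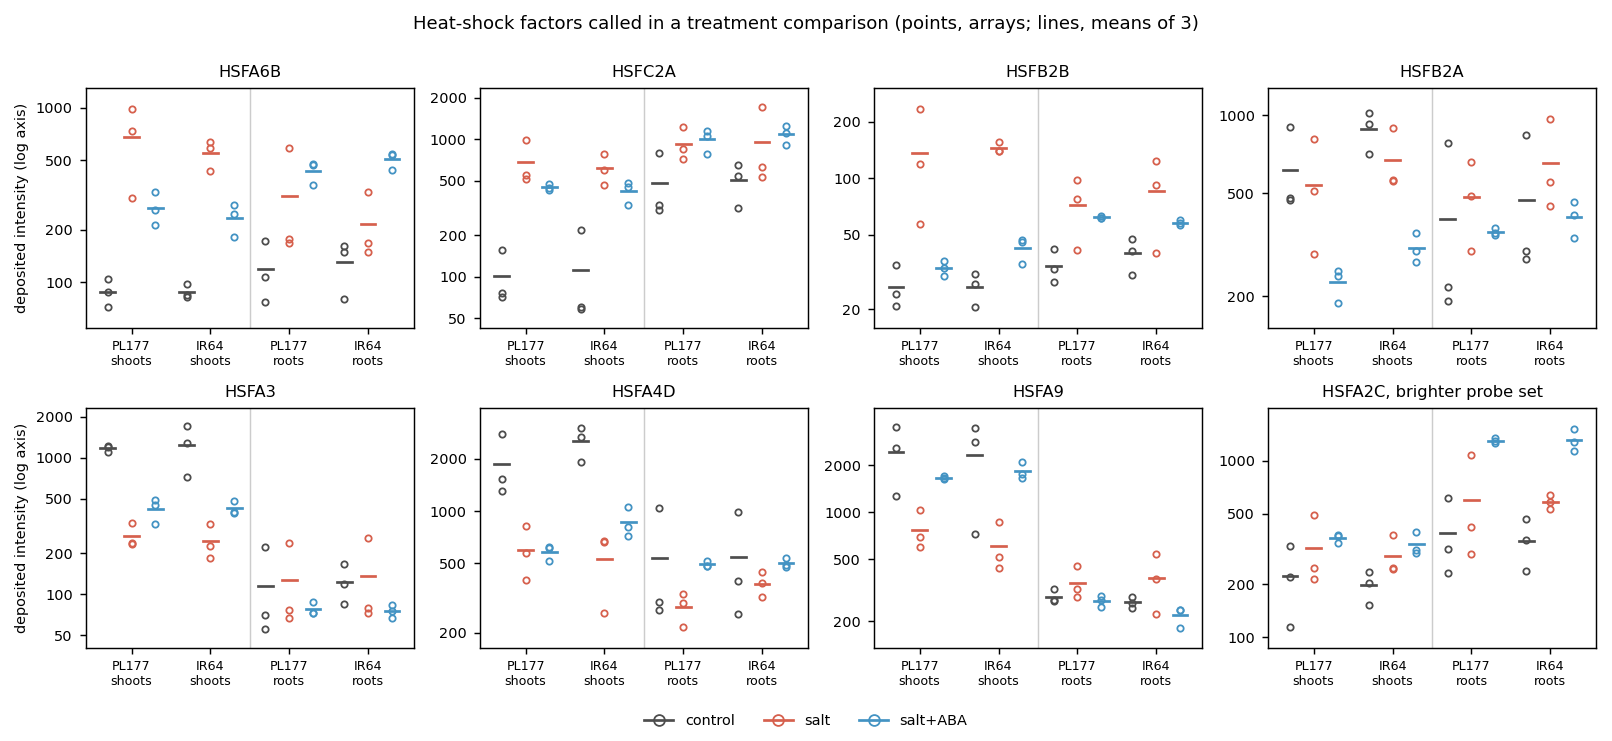
Deposited intensity (log axis) of the 8 HSFs called in a treatment comparison, in the 12 groups; points are arrays and lines the means of 3. HSFA2C is shown by its brighter probe set, the only one of it that was called. In shoots the salt arrays of HSFA6B and HSFC2A lie above the control arrays and those of HSFA3 and HSFA4D below them, and in roots the salt+ABA arrays of HSFA6B lie above the control arrays.

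By their brightest probe sets, the 12 HSFs with no call stayed between -0.76 and 0.88. HSFB2C, a class B factor, went beyond this with another of its 3 probe sets, which had 101, 102 and 139.9 in PL177 control shoots, 218, 308 and 589.5 under salt and 138, 146 and 110.1 under salt+ABA, and 150.2, 80.6 and 215 under the control and 417, 370.1 and 232 under salt in IR64. The salt arrays lay above the control arrays in both genotypes. This probe set rose under salt by 1.33 ± 0.31 (SE, adjusted p = 0.0132) in PL177 and 1.05 ± 0.31 (SE, adjusted p = 0.0472) in IR64, and changed by -1.27 ± 0.31 (SE, adjusted p = 0.0189) for salt+ABA against salt in PL177, where the brightest one changed by 0.18, -0.06 and -0.43. HSFA1 stayed within -0.11 and 0.04 and HSFA5 within -0.16 and 0.04, and their intensities ran from 826 to 1313 and from 416 to 596 over the 36 arrays. HSFA2E, a class A factor, rose by less than 2-fold in salt-treated shoots, by 0.61 ± 0.13 (SE, adjusted p = 0.00764) in PL177 and 0.57 ± 0.13 (SE, adjusted p = 0.0118) in IR64, with no overlap of the groups. HSFB4B changed by 0.77 ± 0.17 (SE, adjusted p = 0.0123) and 0.68 ± 0.17 (SE, adjusted p = 0.0262) for salt+ABA against salt in shoots.

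**Figure D4:**
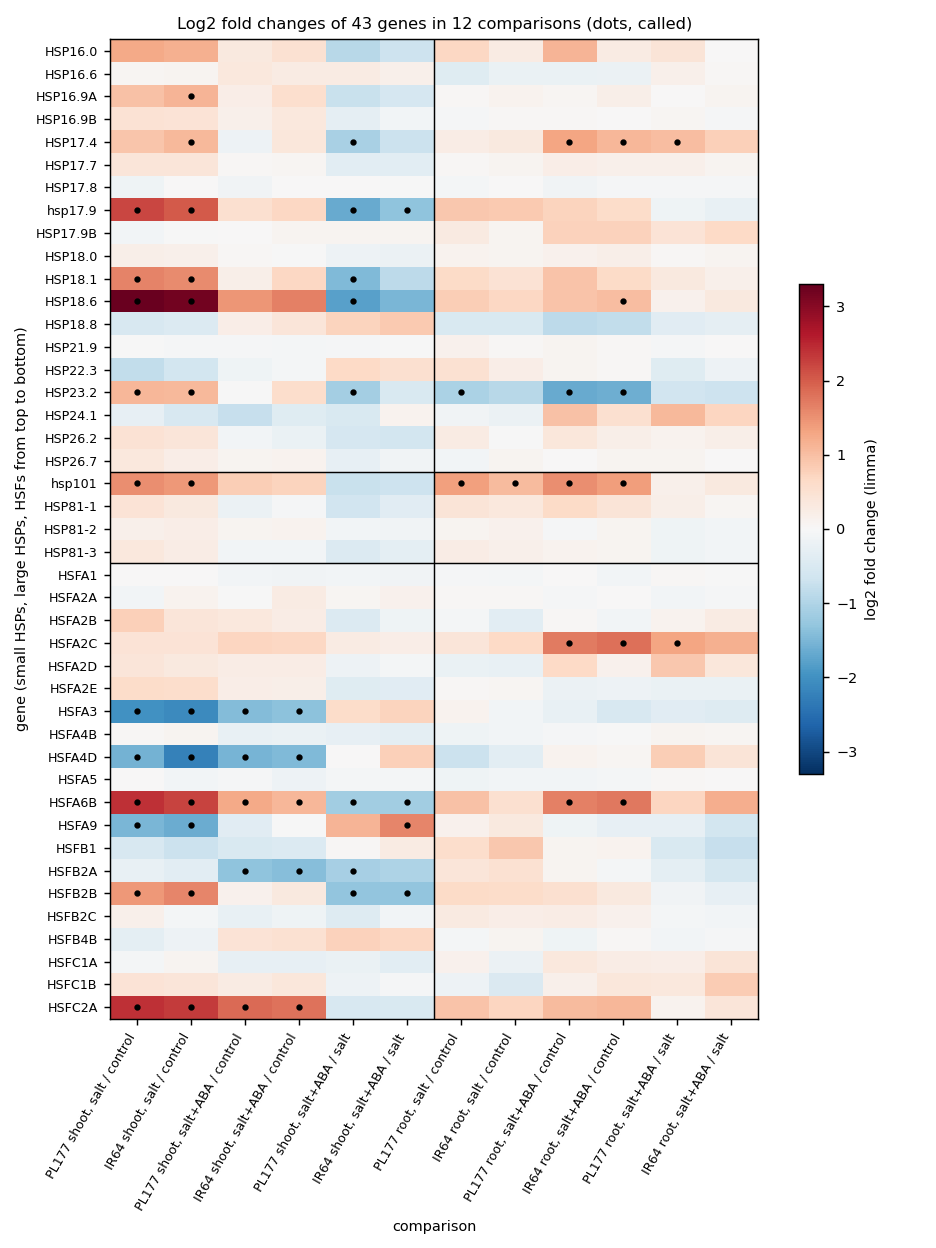
Log2 fold changes (colour) of the 43 genes in the 12 comparisons between treatments, shoots to the left and roots to the right, with small HSPs, large HSPs and HSFs from top to bottom; dots mark calls. The dots number 11 and 13 for salt against control in PL177 and IR64 shoots and 2 and 1 in their roots.

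The partners and possible targets of these genes, a list of 32 genes drawn up by name (DnaJ-type J proteins, BiP and calreticulin, protein disulfide isomerases, other Clp proteins, ascorbate peroxidases, DREB2 factors and SGT1), had few calls. For salt against control in shoots 1 of 32 was up and none down in each genotype, where 0.983% and 0.968% of all probe sets rose, with medians of 0.20 in PL177 and 0.17 in IR64. That gene was DJC27, a J protein, with 145, 237 and 127.9 in PL177 control shoots, 338, 403 and 638 under salt and 203, 185 and 184 under salt+ABA. It rose by 1.23 ± 0.22 (SE, adjusted p = 0.00289) and 1.17 ± 0.22 (SE, adjusted p = 0.00413) under salt and changed by -1.14 ± 0.22 (SE, adjusted p = 0.00614) and -1.19 ± 0.22 (SE, adjusted p = 0.00659) for salt+ABA against salt, the 1 of 32 called there. In salt+ABA roots against control, where 1.1% and 0.875% of all probe sets rose, 1 of 32 did, OsPDIL1-3, a protein disulfide isomerase, with 113, 133 and 184 in PL177 control roots and 510.5, 490.1 and 385 under salt+ABA. It rose by 1.48 ± 0.17 (SE, adjusted p = 3.25e-05) and 1.47 ± 0.17 (SE, adjusted p = 4.17e-05). These are all the calls of the list in the 12 comparisons. DREB2A, the plastid disaggregase gene CLPB-C and the HSP70-type chaperone gene BIP1 of the endoplasmic reticulum were not among them.

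No member was called between PL177 and IR64 in any of the 3 treatments of either organ, nor for a difference between the genotypes in a response to treatment. Among all probe sets 0.112%, 0.119% and 0.114% were called between the genotypes in control, salt and salt+ABA shoots, and 0.107%, 0.117% and 0.114% in roots. Of the 258 tests of the 43 members in these 6 comparisons, 8 had an unadjusted p below 0.05, none of them past 2-fold. The differences ran from -0.61, for HSP24.1 in salt+ABA shoots, to 0.67, for HSFA2D in salt+ABA roots, with standard errors between 0.05 and 0.51. The smallest adjusted p was that of HSFB4B in control roots, at 0.26 ± 0.08 (SE, adjusted p = 0.484) by limma. HSFA2D in salt+ABA roots had 3653, 3683 and 3876 in PL177 and 2022, 2047 and 2956 in IR64, 0.67 ± 0.26 (SE, adjusted p = 0.786).

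For the responses, 0%, 0.00349% and 0% of all probe sets were called for salt against control, salt+ABA against control and salt+ABA against salt in shoots, and 0.00175%, 0.00175% and 0% in roots. Of the 258 tests of members, 4 had an unadjusted p below 0.05, none of them more than 2-fold. The differences, PL177 minus IR64, ran from -0.75 to 0.84 with standard errors between 0.08 and 0.72 and a median of 0.25. Differences of 2-fold could thus be missed for many of the genes, and larger ones for those with a wide spread. The response of HSP18.6 to salt+ABA against salt in shoots, called in PL177 and not in IR64, differed by -0.28 ± 0.72 (SE, adjusted p = 1). That of HSP18.1 differed by -0.59 ± 0.28 (SE, adjusted p = 1), that of HSP23.2 by -0.62 ± 0.27 (SE, adjusted p = 1), that of HSP17.4 by -0.39 ± 0.33 (SE, adjusted p = 1) and that of HSFA9 by -0.48 ± 0.63 (SE, adjusted p = 1). The unequal counts of 8 and 4 calls in the 2 genotypes are thus not shown to be a difference between them. When the replicate number entered as a block for each treatment separately, an alternative chosen after seeing the data, the counts for both kinds of genotype comparison were 0 too.

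Members were called between shoots and roots. For the difference of a response between the organs, 5, 4 and 10 of the 43 members were called in PL177 (salt against control, salt+ABA against control, salt+ABA against salt) and 5, 2 and 5 in IR64. Over all probe sets the shares were 2.72%, 2.35% and 2.67% in PL177, and 2.93%, 1.95% and 2.84% in IR64. HSP23.2 had the smallest adjusted p of the members for salt in both genotypes, and its salt response in shoots minus that in roots was 2.18 ± 0.34 (SE, adjusted p = 0.000136) in PL177 and 2.05 ± 0.34 (SE, adjusted p = 0.000234) in IR64. That of HSP18.6 was 2.34 ± 0.53 (SE, adjusted p = 0.00618) and 2.39 ± 0.53 (SE, adjusted p = 0.00462). HSP22.3 fell in shoots by less than 2-fold, at -0.80 ± 0.18 (SE, adjusted p = 0.0094) in PL177, and its difference was -1.27 ± 0.24 (SE, adjusted p = 0.00111). HSFA3, dim in roots at intensities of 55.4 to 257, had -2.06 ± 0.53 (SE, adjusted p = 0.0149) and -1.93 ± 0.53 (SE, adjusted p = 0.0206), and HSFA9 -1.60 ± 0.50 (SE, adjusted p = 0.0457) and -1.91 ± 0.50 (SE, adjusted p = 0.0157). The HSFA9 calls were lost without any 1 of 26 arrays in PL177 (values from -1.67 to -1.31) and of 4 in IR64 (from -1.70 to -1.51). Of the 31 called organ differences, 13 held without any 1 array. These 31 rest on the brightest probe sets. For 3 genes, HSP18.1, HSP81-1 and HSFB2C, another probe set was called for an organ difference where the brightest was not, 9 times in all.

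For salt+ABA against salt, HSP17.4 was called down in shoots and up in roots of PL177. In IR64 it moved in the same directions and was called in neither organ. The difference between the organs was -2.12 ± 0.27 (SE, adjusted p = 7.07e-06) in PL177 and -1.49 ± 0.27 (SE, adjusted p = 0.000594) in IR64. HSFA6B fell in shoots and stood higher in roots by 0.70 and 1.21, which were not called, and its differences were -1.84 ± 0.51 (SE, adjusted p = 0.0227) and -2.36 ± 0.51 (SE, adjusted p = 0.00313). HSP18.1 and hsp17.9 had differences of -1.74 ± 0.35 (SE, adjusted p = 0.00146) and -1.45 ± 0.40 (SE, adjusted p = 0.0215) in PL177. The unshared probe set of HSP18.1 differed for salt+ABA against salt by -2.75 ± 0.34 (SE, adjusted p = 4.16e-06) in IR64, where the brighter one, at -1.0, was not called. HSP24.1 had -1.57 ± 0.47 (SE, adjusted p = 0.0367) in PL177. In the opposite direction, HSP18.8 stood higher under salt+ABA than under salt in shoots and lower in roots, with differences of 1.08 ± 0.32 (SE, adjusted p = 0.0351) and 1.11 ± 0.32 (SE, adjusted p = 0.0256), lost without any 1 of 10 and of 5 arrays. For hsp101, which rose under salt in both organs, no difference between the organs was called.

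**Figure D5:**
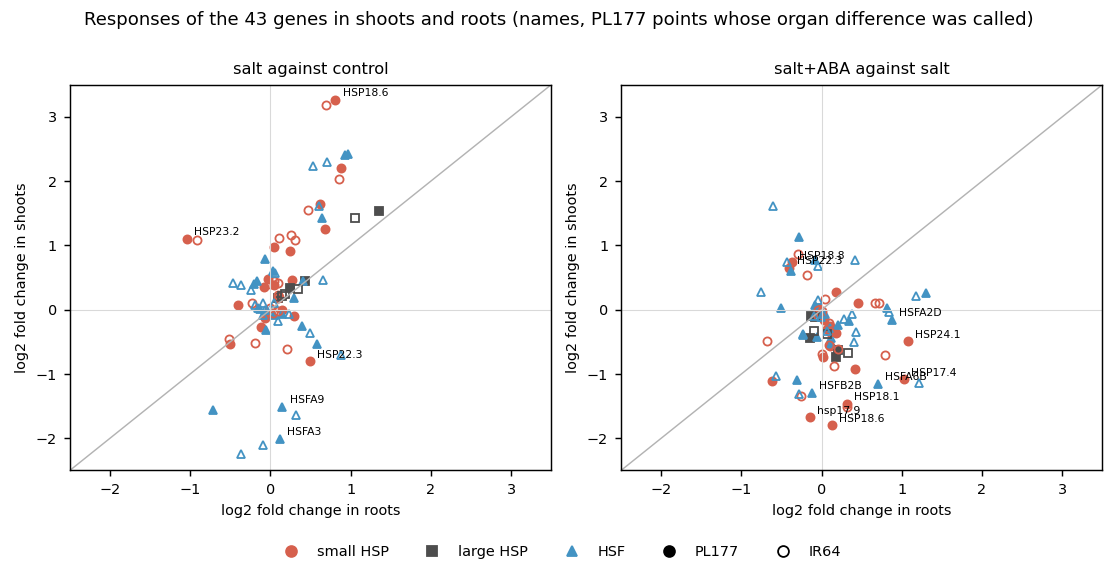
Log2 fold changes in shoots (vertical) against those in roots (horizontal) of the 43 genes, for salt against control (left) and salt+ABA against salt (right); filled symbols are PL177, open symbols IR64, the grey line marks equal changes, and names are given for PL177 points whose organ difference was called. HSP23.2 lies at 1.10 in shoots and -1.04 in roots in the left panel, and HSP17.4 at -1.08 and 1.03 in the right panel.

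The levels also differed between the organs. Between 10 and 17 of the 43 members were called between shoots and roots of 1 genotype and treatment: 12, 10 and 17 in PL177 under the control, salt and salt+ABA, and 12, 10 and 17 in IR64. The shares of all probe sets were 16.3%, 14.1% and 17.7% in PL177, and 16%, 14.2% and 17.4% in IR64. HSP17.9B, HSP18.6 and HSFB4B were higher in shoots in all 6 comparisons, and HSP17.7 and HSP23.2 higher in roots in all 6. Under the control HSP17.9B differed by 2.58 ± 0.21 (SE, adjusted p = 4.05e-11) in PL177 and HSP23.2 by -3.84 ± 0.24 (SE, adjusted p = 9.27e-14). HSFA3 and HSFA9, which fell under salt in shoots, were higher in shoots by 3.07 ± 0.38 (SE, adjusted p = 7.03e-08) and 2.58 ± 0.36 (SE, adjusted p = 5.13e-07) under the control and by 1.01 ± 0.38 (SE, adjusted p = 0.0291) and 0.98 ± 0.36 (SE, adjusted p = 0.0252) under salt in PL177. The shoot against root difference of HSFC2A, brighter in roots, was -1.97 ± 0.41 (SE, adjusted p = 0.000217) under the control and -0.61 ± 0.41 (SE, adjusted p = 0.251) under salt in PL177.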

How the data were processed

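Total RNA of 36 samples (TRIzol) was hybridised to Affymetrix rice arrays at CapitalBio, per the labels. The values the authors deposited are linear intensities of 57381 probe sets in 1 table. For their summary and normalization, the sources used here name no method. Removing 123 control probe sets left 57258. Gene names came from the platform annotation (22436 probe sets with 1 gene, 95 with several, 34727 with none). The 43 genes have 64 probe sets, 14 genes have several, and the chosen set of 12 bears a suffix that marks shared probes. No sequences were used, and coordinates served only for the gene order, which is from RefSeq ASM3414082v1.

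The 18 arrays of an organ (36 for comparisons of organs) were brought to common quantiles, and values were tested as log2(intensity + 32). All groups entered 1 fit in limma 3.58.1 (lmFit, contrasts.fit, eBayes, R 4.3.3) with Benjamini-Hochberg adjustment over all probe sets, no covariate and two-sided tests. Calls follow the thresholds of the study's methods, a change over 2-fold with an adjusted p under 0.05. The paper's results section instead names t-tests at P below 0.05 with the same fold change, so its gene lists need not match these calls. The fit was tested on simulated data. With 3 arrays per group, the number of arrays limits the precision. Between any arrays the highest correlation was 0.9981, and none were treated as duplicates. The members, the gene lists and the alternatives were chosen with earlier results of these data known. Array values are given for members called between treatments and, chosen after their values were seen, for some that were not, where their level, spread, genotype difference or other probe set is described. Alternatives were the added value, median centring, a filter at an intensity of 100, a replicate block, other fits, a t-test, other probe sets of a gene and leaving out arrays. Of 20 HSFs, HSFA2A also carries HSP names. Tables were made in Python 3.11.15 with pandas 2.3.3 and figures in matplotlib 3.10.9.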

Additional observations from a re-analysis of the deposited data

Results flagged for a closer look

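For 31 responses of the members, the test of the difference between shoots and roots of 1 genotype passed the thresholds (limma on all 36 arrays, adjusted over all probe sets). The values here are log2 fold changes in shoots minus those in roots.

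For salt against control in PL177 the difference was 2.34 for HSP18.6 and 2.18 for HSP23.2, whose fold changes, not levels, were both higher in shoots. It was -2.06 for HSFA3, -1.6 for HSFA9 and -1.27 for HSP22.3, a small HSP. In IR64 it was 2.39 for HSP18.6, 2.05 for HSP23.2, 1.64 for HSFA6B, -1.93 for HSFA3 and -1.91 for HSFA9. The small HSPs HSP18.6 and HSP23.2 and the factors HSFA3 and HSFA9 were thus among the calls of both genotypes.

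For salt+ABA against control in PL177 it was 1.72 for HSP23.2, 1.05 for HSP18.8, -1.49 for HSP17.4 and -1.69 for HSP24.1. In IR64 it was 2.27 for HSP23.2 and 1.18 for HSP18.8. The value of HSP18.8 in PL177 fell to 0.66 without PL177 shoot control replicate 2 or without both shoot control arrays numbered 2 (adjusted p = 0.103 and 0.0518 by limma), and that in IR64 to 0.93 in the corresponding fits.

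For salt+ABA against salt in PL177, 8 of 10 differences were below 0. They were -2.12 for HSP17.4, -1.85 for HSP18.6, -1.84 for HSFA6B, -1.74 for HSP18.1, -1.57 for HSP24.1, -1.45 for hsp17.9, -1.16 for HSFB2B and -1.05 for HSFA2D, and those above 0 were 1.08 for HSP18.8 and 1.03 for HSP22.3. In IR64 the difference was -2.36 for HSFA6B, -1.78 for HSP18.6, -1.49 for HSP17.4, 2.18 for HSFA9 and 1.11 for HSP18.8. Whether these organ differences differ between the genotypes was not tested. The value of HSFA2D rests on 1 of its 2 probe sets. Leaving out 1 array ended 18 of the 31 calls in at least 1 fit, among them HSFA9 for salt in PL177 without any 1 of 26 arrays. Without both shoot control arrays numbered 2, HSFA6B for salt in IR64 was at 1.61 with an adjusted p of 0.0542 and was not called.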

How the results depend on the processing

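Of 93 single calls between treatments or of organ differences, 49 held without any 1 array and 44 were lost in at least 1 such fit. Leaving out 1 array in turn, the members called for salt against control, salt+ABA against control and salt+ABA against salt numbered 9 to 12, 2 to 5 and 2 to 9 in PL177 shoots, 11 to 13, 1 to 6 and 2 to 6 in IR64 shoots, 2 to 3, 5 to 7 and 0 to 3 in PL177 roots and 1 to 2, 5 to 7 and 0 to 2 in IR64 roots. Calls of organ differences in response ranged from 21 to 37, those of levels between the organs from 76 to 80, and those between the genotypes from 0 to 0. In IR64 roots the count for salt rose to 2 without IR64 root salt replicate 1 or 3 or root control replicate 1, and that for salt+ABA against salt to 2 without PL177 root salt replicate 1.

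With no threshold on the fold change, the 3 counts were 21, 6 and 14 in PL177 shoots, 19, 7 and 10 in IR64 shoots, 8, 11 and 3 in PL177 roots and 5, 9 and 3 in IR64 roots, with 55 organ differences and 150 level differences. With only the groups compared in the fit they were 7, 3 and 7, 10, 3 and 6, 1, 6 and 1, and 1, 7 and 2 in the same order. With the larger of the added values they were 8, 4 and 3, 9, 4 and 1, 0, 4 and 1, and 0, 4 and 0. A t-test per probe set on the same values called 0, 0 and 0, 0, 0 and 2, 0, 3 and 0, and 0, 3 and 0, with 12 organ differences. The other alternatives moved these counts by over 1.5 times in these cases. In PL177 roots, salt+ABA against salt gave 0 with median centring, 1 with limma's trend and robust options and 1 with the other probe set of HSFA2C and HSFA2D. In IR64 roots it gave 2 without dim probe sets, 2 with all 36 arrays in 1 fit and 1 with the most variable probe set. In PL177 shoots, salt+ABA against control gave 3 without both control arrays numbered 2. The causes were not tested.

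With the replicate number as a block (replicate block), the counts were 11, 6 and 9, 13, 6 and 5, 2, 5 and 2, and 1, 6 and 2, so that IR64 roots gained 2 calls for salt+ABA against salt. Across treatments the correlations of same-numbered arrays ran from -0.491 to 0.599, and no pair of groups had all of them over 0.1. Pairing of the samples across treatments by these numbers was thus not shown. Between the genotypes the calls numbered 0 under every alternative run. The change of HSFA2C for salt+ABA against salt in PL177 roots was -0.03 with its other probe set. The organ difference of HSFA2D for salt+ABA against salt in PL177 turned to 0.97 with its other probe set, which is also its most variable one. The array number, 3 per group, and low intensities, with no group mean reaching 100 for 7 of 43 members, limit what could be detected.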
